A study of Talpa occidentalis with 6 samples.

Results

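Open chromatin in the testicular portion of the ovotestis of female Iberian moles (Talpa occidentalis) was set beside that of the testis of males, both wild type and at postnatal day 7. The groups hold 2 samples each, so 4 of the 6 samples described here enter the comparison, and they were chosen by the tissue named in their labels. The remaining 2 samples are the ovarian portion of the ovotestis, used only as a point of reference. The assay was ATAC-seq, which tags accessible DNA with a cutting transposase, at 50000 cells per reaction. Each group is represented by 1 segmentation of the genome that the labels attach to both of its samples, so there was no spread between samples and no test, and the sequencing depth is unknown. The libraries of both ovotestis portions carry consecutive numbers in the labels and those of the testis belong to another run of numbers, so tissue, sex of the animal and library series cannot be told apart.

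Female Iberian moles carry ovotestes, gonads with an ovarian part that makes oocytes and a testicular part. The testicular part holds cord-like structures and steroid-producing Leydig cells, secretes androgens and lacks germ cells, whereas the male testis holds Sertoli cells, Leydig cells and the germ line. ATAC-seq of whole tissue reads promoters and enhancers that are free of nucleosomes, and fewer cells with an open site cannot be told apart from less opening per cell.

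The segmentations give each bin of 200 bp 1 of 5 numbered states. State 1 is taken as open, state 2 as the next step, and states 4 and 5 as closed, from the order and colours of the states and not from a measurement at genes. The sources used here do not say if 1 model served all tissues, so the comparison assumes that a number means the same in both. It covers 9580688 bins, or 1.92 Gb, on scaffolds 1 to 17 of the assembly talOcc4 without scaffold 15, which is 16 of 4454 scaffolds, 91.3% of the 10493388 bins of the segmented sequence. Below, a bin is "toward open" where its state number is lower in the testis than in the testicular portion and "toward closed" where it is higher. These words name the direction of the comparison and no order in time. No annotation of this assembly was at hand, so neither genes nor cell type markers could be placed on the segments, and regions are named by position.

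The tissues carried the same state in 74.6% of the bins, and nearly all other bins differed by 1 step. State totals alone, multiplied over the tissues, would give 45.9%. On single scaffolds the share with the same state ranged only from 73.6% on scaffold 10 to 75.6% on scaffold 9. Another state was found in 2429667 bins (25.4%), toward open in 1257937 (13.1%) and toward closed in 1171730 (12.2%). Of the bins with another state, 98.8% differed by 1 step and 80.8% were exchanges between states 3 and 4.

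Open sequence was traded mostly against state 2 and never against state 5. Of the 86694 state 1 bins of the testicular portion, 63383 (73.1%) were state 1 in the testis and 22574 (26.0%) were state 2. A further 689 (0.795%) were state 3, 48 (0.0554%) were state 4 and 0 were state 5. Read from the other side, 71.7% of the 88400 state 1 bins of the testis were state 1 in the testicular portion, 23.8% were state 2, 3.86% were state 3 and 0.661% were state 4. Open bins of the testis thus reached further down in the testicular portion than the reverse, with 584 bins in state 4 against 48.

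State 2 and state 3 of the testicular portion met the less open neighbour more often than the more open one, as state totals partly build in. Of its 418374 state 2 bins, 255432 (61.1%) were state 2 in the testis, 138171 (33.0%) were state 3, 21025 (5.03%) were state 1, 3726 (0.891%) were state 4 and 20 were state 5. Of the 3242313 state 3 bins of the testicular portion, 2121515 (65.4%) were state 3 in the testis, 963368 (29.7%) were state 4, 153376 (4.73%) were state 2, 3408 (0.105%) were state 1 and 646 were state 5. State 4, which covers most of the genome, was the state most often shared. Of its 5614538 bins, 4552624 (81.1%) were state 4 in the testis, 999102 (17.8%) were state 3, 42488 (0.757%) were state 5, 19740 (0.352%) were state 2 and 584 were state 1. Of the 218769 state 5 bins, 158067 (72.3%) were state 5 in the testis, 59999 (27.4%) were state 4, 677 (0.309%) were state 3, 26 were state 2 and 0 were state 1.

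**Figure D1:**
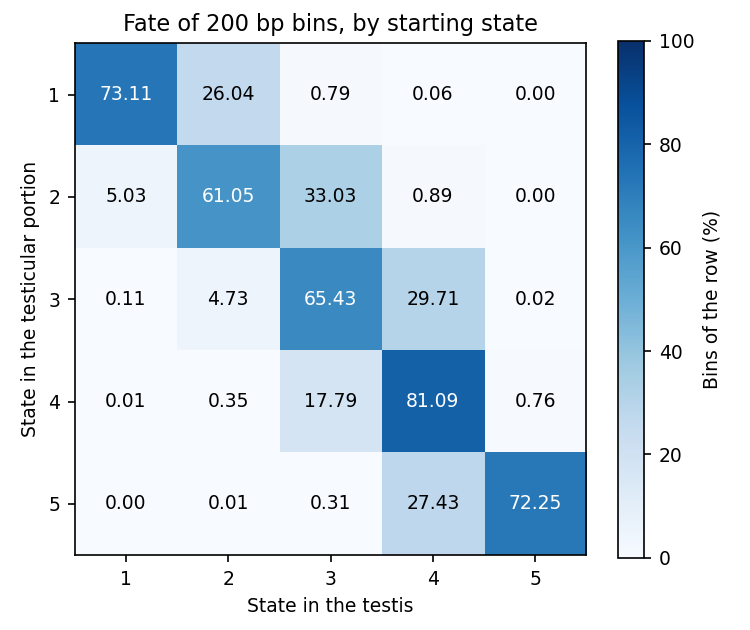
Share of the bins of each state in the testicular portion (rows) that carry each state in the testis (columns), in percent of the row, for 9580688 bins of 200 bp. The diagonal runs from 61.05% for state 2 to 81.09% for state 4, and cells further than 1 step from it hold under 1% each.

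Exchanges between states 3 and 4 and between 1 and 2 were closer to balance than those between 4 and 5 and than the larger steps. From state 4 to state 3 the testis had 35734 more bins than the reverse, from 3 to 2 it had 15205 more, and from 5 to 4 it had 17511 more, with 59999 bins against 42488. For the exchange between 2 and 1 the sign was opposite, with a net of -1549 bins, since state 1 of the testicular portion met state 2 of the testis more often than the reverse. Steps of 2 or more numbered 24435 bins toward open (0.255%) and 5129 toward closed (0.0535%), or 4.76 times as many. Of the larger steps toward open, 19740 led from state 4 to state 2.

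Beside the ovarian portion the pattern differed in these large steps. Testis and ovarian portion shared their state in 71.9% of bins, with 37374 large steps toward open in the testis and 20469 toward closed. For the ovarian and testicular portions the share was 73.0%, with 13714 large steps toward open in the testicular portion and 25072 toward closed. These comparisons share tissues with each other and are given side by side only.

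Most stretches of differing state were short, and most spanned or touched a state boundary of both tissues. Adjoining bins that differ in the same direction formed 303576 runs toward open, with a mean of 829 bp and a median of 600 bp, and 287514 runs toward closed, with a mean of 815 bp and the same median. Runs with a state boundary of both tissues at an edge or inside held 52.9% of the bins toward open and 52.4% of those toward closed. A run can only end where at least 1 tissue changes state, so a boundary in 1 of them is built in. The remainder separated the directions. Runs toward open lay inside 1 unbroken segment of the testicular portion, as an island seen in the testis alone, for 34.3% of bins, against 19.1% for runs toward closed. Runs inside 1 unbroken segment of the testis, as an island seen in the testicular portion alone, held 12.8% of bins toward open and 28.5% toward closed. In both cases the more open island was the more frequent kind.

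The longest single run toward closed spanned 14200 bp on scaffold 4 at 62389001 to 62403200, state 3 throughout in the testicular portion and state 4 throughout in the testis. Toward open, the longest runs spanned 13400 bp, one on scaffold 9 at 3848201 to 3861600, with states 3 to 4 in the testicular portion and 2 to 3 in the testis. The other, on scaffold 14 at 19660601 to 19674000, was state 5 in the testicular portion and state 4 in the testis. Runs of this length were exceptional beside the median of 600 bp. They were singled out by length after the values were seen.

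The testis divided its chromatin more finely in every state. Over all 5 states it had 825372 segments, and the testicular portion had 754126. The mean length was 505 bp in the testis and 579 bp in the testicular portion for state 1. It was 603 bp and 649 bp for state 2, 1871 bp and 2024 bp for state 3, 4248 bp and 4533 bp for state 4, and 1366 bp and 1609 bp for state 5. In the ovarian portion these means were 595, 710, 1985, 4892 and 1571 bp, so the testis had the lowest mean of the 3 tissues for each state.

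Open segments were more numerous and shorter in the testis, and whole extra segments accounted for most of the difference in number. The testis had 34980 open segments over 17.7 Mb, and the testicular portion had 29956 over 17.3 Mb, a ratio of 1.17. Of the 5024 extra segments, 4593 (91.4%) came from segments that overlap no open segment in the other tissue, and 431 came from splitting. The testis had more segments on 15 of the 16 scaffolds, the exception being scaffold 2 with a ratio of 0.918, and its mean segment was shorter on 16 of 16. Segments of a single bin were 33.6% of those in the testis and 29.6% of those in the testicular portion.

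Among segments without a partner, the testis again held more. Of the testicular portion segments, 6903 (23.0%, Wilson 95% interval 22.6% to 23.5%) overlapped no open segment of the testis. Of the testis segments, 11496 (32.9%, 32.4% to 33.4%) overlapped none of the testicular portion. The intervals in this text cover counting error only, and neighbouring segments are not independent. Segments without a partner were short, those of the testicular portion averaging 351 bp and those of the testis 313 bp, against 647 bp and 600 bp for segments with one. Of those of the testicular portion, 93.9% reached state 2 in the testis, and of those of the testis, 79.2% reached state 2 in the testicular portion.

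Splitting was rare and ran mainly in one direction. In the testis, 509 segments of the testicular portion (1.70%, 1.56% to 1.85%) lay over 2 or more open segments, 457 of them over exactly 2. In the testicular portion, 150 segments of the testis (0.429%, 0.366% to 0.503%) did so. Splits of the testicular portion segments were the more numerous on 16 of 16 scaffolds. With states 1 and 2 together called open, the counts were 2477 and 2000, closer to each other in proportion. With open segments at most 200 bp apart joined they were 375 and 106, and with segments of at least 400 bp they were 287 and 69. Each of these rules changes the number of segments in both tissues, so the counts cannot be set beside the shares above. Ovarian portion segments were split in the testis in 519 cases (1.72%) and in the testicular portion in 287 (0.95%).

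The sequence between the pieces was a narrow step down. The 509 split segments had a median length of 1600 bp and held 585 gaps, and 585 of the 585 gaps were state 2 throughout. A gap had a median width of 400 bp, 289 (49.4%) were a single bin, and the widest was 5200 bp. In the reverse direction the 154 gaps had a median width of 200 bp, and state 2 again filled each of them.

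Short open segments most often lacked a partner, and splits were found among longer ones. A segment of 200 or 400 bp cannot be split, since 2 pieces and a gap need 3 bins, so the dependence of splitting on length is partly built in. The same holds for lacking a partner, since an overlap of 1 bin counts and a longer segment has more bins that can meet one. Among testicular portion segments of 200 bp, 42.9% had no open partner in the testis, and among those of 400 bp, 25.3% had none. From 600 to 1000 bp the share was 9.25%, and 0.947% were split. From 1200 to 2000 bp, 3.74% had no partner and 10.5% were split. Above 2000 bp, 22 of 338 segments (6.51%) had no partner and 128 (37.9%, 32.9% to 43.2%) were split. Testis segments above 2000 bp were fewer, at 162, and 8 of them (4.94%, 2.52% to 9.44%) were split in the testicular portion, the other 154 overlapping exactly 1 segment. Ovarian portion segments of that length were split in the testis in 121 of 335 cases (36.1%).

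**Figure D2:**
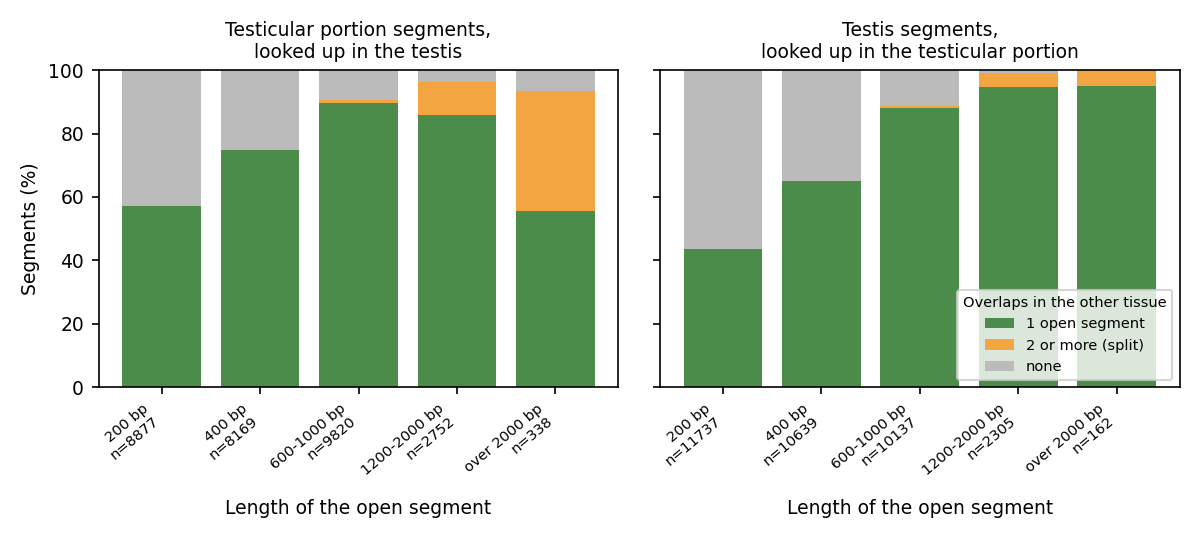
Stacked bars give the share of open segments (y axis, percent) in each length class (x axis, with the number of segments) that overlap 1, several or no open segments in the other tissue. In the testicular portion the share without a partner is 42.9% at 200 bp and 3.74% at 1200 to 2000 bp, and the split share reaches 37.9% above 2000 bp there, against 4.94% for testis segments.

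Where an open segment of each tissue overlapped only the other, the usual outcome was the same length. Of 22251 such pairs, 11824 (53.1%) had equal length, 5779 (26.0%, 25.4% to 26.6%) were shorter in the testis and 4648 (20.9%, 20.4% to 21.4%) were longer. Pairs averaged 616 bp on the testicular portion side and 592 bp on the testis side, a difference of -24.3 bp. Shortening by 1 bin accounted for 4020 pairs and lengthening by 1 bin for 3530. Differences of 400 bp or more were shortenings in 1759 pairs and lengthenings in 1118. With states 1 and 2 together called open the order turned, with 22925 pairs shorter in the testis and 25438 longer.

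Shortening was counted at 1 edge more often than at both, an order that segment length partly builds in. Both edges coincided in 11469 pairs (51.5%). A single edge lay further in for 4695 pairs (21.1%) and both for 1023 (4.60%). A segment of 200 bp cannot be shortened and keep a partner, and one of 400 bp can do so at 1 edge only. How many pairs would have both edges further in if edges moved independently was not computed. A preference for 1 edge therefore cannot be read from these counts. A single edge lay further out for 4002 pairs (18%) and both for 602 (2.71%), and 460 pairs (2.07%) were displaced, with one edge in and the other out. Between the ovarian portion and the testis the pairs were more unequal, with 37.7% shorter in the testis and 16.2% longer.

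In summed length, whole segments outweighed trimming, most of all in the testis. The testicular portion held 4.66 Mb of state 1 that was not state 1 in the testis, of which 52.0% lay in whole segments without a partner, 42.7% at the ends of overlapping segments and 5.27% in gaps of split segments. The testis held 5.0 Mb that was not state 1 in the testicular portion, divided into 71.9%, 27.2% and 0.895%. Trimmed ends thus came to 1992 kb for the testicular portion and 1360 kb for the testis, and whole segments to 2425 kb and 3599 kb.

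Segments that were open in one tissue and closed throughout in the other were few and short. They numbered 28 in the testicular portion (0.0935%, 0.0647% to 0.135%) and 406 in the testis (1.16%, 1.05% to 1.28%), with a median of 200 bp in each. The longest of the testicular portion spanned 600 bp each: 2609201 to 2609800 of scaffold 2, 78938401 to 78939000 of scaffold 4, and 59064601 to 59065200 of scaffold 17. All 3 were state 4 in the testis, while the ovarian portion gave them state 3, state 3 and state 2. The longest of the testis spanned 1000 bp on scaffold 1 at 59009001 to 59010000, state 4 in the testicular portion and states 3 to 4 in the ovarian portion. The next were 600 bp each, located at 117929001 to 117929600 of scaffold 1 and at 22567601 to 22568200 of scaffold 3. The testis segments were spread over 16 of 16 scaffolds with 9 to 42 on each, and those of the testicular portion over 13.

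The segments with the most pieces were also among the longest, and the share of them that was open in the testis varied widely. On scaffold 8 at 44066601 to 44093600, an open segment of 27 kb in the testicular portion held 7 open pieces in the testis, 9.8 kb of it open, and 18.6 kb was open in the ovarian portion. On scaffold 2 at 33737601 to 33762600, a segment of 25 kb also held 7 pieces, but 22.6 kb of it was open in the testis and 23.8 kb in the ovarian portion. A neighbouring segment of 21 kb at 33673601 to 33694600 held 6 pieces with 19.4 kb open in the testis. The sequence not open in the testis was state 2 in each of the 3. In the opposite direction the counts were smaller, with 3 pieces at most, among them a testis segment of 5.2 kb on scaffold 2 at 33691601 to 33696800 and one of 1.8 kb on scaffold 5 at 135187201 to 135189000.

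Extreme shortening was also found on scaffolds 2 and 8. A pair on scaffold 2 measured 4600 bp in the testicular portion, at 41035001 to 41039600, and 600 bp in the testis. On scaffold 8 a segment of 4400 bp at 44121201 to 44125600 also measured 600 bp in the testis, and on scaffold 2 one of 3800 bp at 39625601 to 39629400 measured 400 bp. The largest lengthening was on scaffold 8, where 400 bp at 18992201 to 18992600 stood against 4200 bp in the testis, at 18989401 to 18993600. The next 2, at 137760601 to 137761000 of scaffold 4 and at 117088601 to 117089000 of scaffold 9, went from 400 bp to 2000 bp between the testicular portion and the testis.

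A single stretch of scaffold 2 held most of the windows in which state 1 covered far less of the testis. In windows of 1 Mb, state 1 was lower in the testis by 20 kb or more in 13 of 1913 windows (0.680%), and 10 of the 13 lay on scaffold 2 between 30000001 and 42000000. In 0 windows was it higher by as much. Over these 12 Mb, state 1 covered 11% of the testicular portion's segmentation, 5.11% of the testis's and 5.59% of the ovarian portion's. The rest of scaffold 2 held 0.713%, 0.824% and 0.825%, so the stretch was rich in state 1 in all 3 tissues and the testicular portion stood apart from the other two. It contributed 56.7% of the state 1 sequence of scaffold 2 for the testicular portion but 34.5% for the testis. State 2 covered 33.9%, 30.4% and 31.4% of it.

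Inside the stretch, state 1 was again traded mostly against state 2, and the steps between states 2, 3 and 4 leaned toward closed as well. From state 1 to 2 there were 3884 bins against 348 the other way. From 2 to 3 there were 6444 against 967, and from 3 to 4 there were 4137 against 1426. Between states 4 and 5 the order was opposite, with 1540 bins from 5 to 4 against 1347. Of the state 1 bins of the testicular portion in the stretch, 40.9% were state 1 in the testis and 58.9% were state 2. The testicular portion had 1764 open segments there and the testis 967, the reverse of the order elsewhere, where it had 28192 and the testis 34013. Segments above 2000 bp numbered 102 and 28 in the stretch, out of 338 and 162 in all. The highest window, from 37000001 to 38000000, held 22.4% state 1 for the testicular portion against 9.84% for the testis and 9.90% for the ovarian portion. Tissues were closer between 33000001 and 34000000, with 17%, 13.3% and 13.5% in the same order. The windows next to the stretch held 0.300% and 0.960% in the testicular portion. The bounds of the stretch were set after its values were seen. Without it, 75.8% of the state 1 bins of the testicular portion were state 1 in the testis, against 73.1% with it, and 422 segments of the testicular portion were split in the testis.

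**Figure D3:**
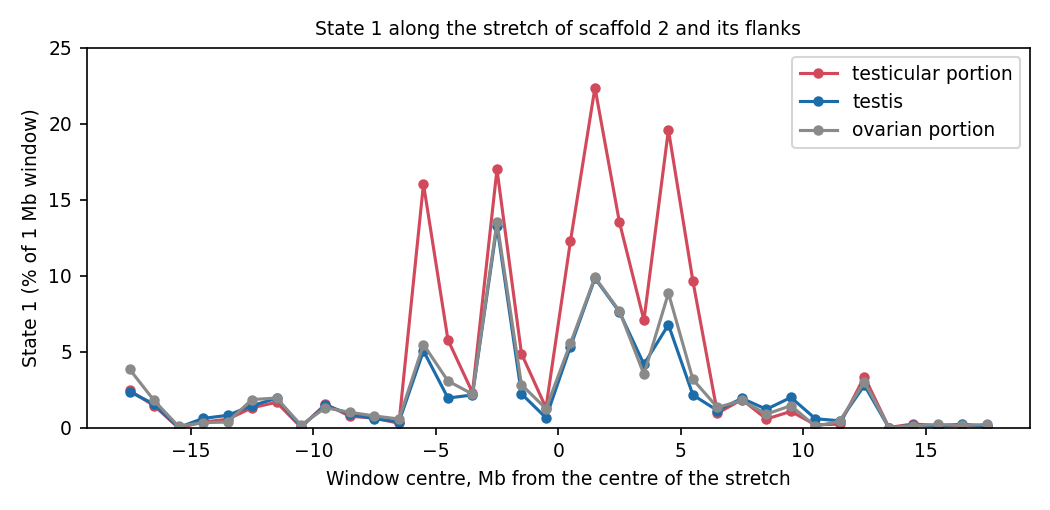
State 1 as a share of each 1 Mb window (y axis, percent) against the distance of the window from the centre of the 12 Mb stretch of scaffold 2 (x axis, Mb), 1 line per tissue. The testicular portion reaches 22.4% where the testis and the ovarian portion stay at 9.84% and 9.90%, and the 3 lines run together outside the stretch.

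The 3 other windows with at least 20 kb less state 1 in the testis were the last one of scaffold 8, from 119000001 to 119847200, one on scaffold 14 from 19000001 to 20000000 and one on scaffold 8 from 44000001 to 45000000. For testicular portion, testis and ovarian portion in turn, state 1 covered 9.84%, 0.661% and 2.64% of the first. It covered 7.14%, 0.40% and 0.32% of the second. In the third, which holds the segment of 27 kb described above, it covered 5.66%, 2.70% and 4.24%.

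Along the scaffolds, the net change of a window was taken as its share of bins toward open minus its share toward closed, in percentage points. Over 1913 windows of 1 Mb the net change had a mean of 0.933 and an SD of 8.47 over windows, and ran from -38.7 to 20. It was 10 points or more toward open in 249 windows (13.0%) and toward closed in 200 (10.5%). At 20 points the counts were 1 and 36, so the extremes lay toward closed. Without the windows within 5 Mb of a scaffold end, the counts at 10 points were 246 and 126.

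Scaffold ends were shifted toward closed from the testicular portion to the testis. Windows centred within 5 Mb of an end had a mean net change of -9.58 (SD 9.56 over 156 windows), and the other 1757 windows had 1.87 (SD 7.71), a difference of -11.4 points. With ends of 2 Mb the difference was -17.4 and with ends of 10 Mb it was -7.60. The difference was below 0 on 16 of 16 scaffolds, from -17.6 on scaffold 4 to -1.30 on scaffold 12. Of the 156 end windows 129 (82.7%) were below 0, against 37.3% of the others and 41.0% of all windows. Averaged by end, 30 of the 32 ends were below 0. The exceptions were the first 5 Mb of scaffold 11, with 1.94, and of scaffold 12, with 3.17. The end with the lowest value was the last 5 Mb of scaffold 14, with -17.8. Windows 10 points or more toward closed made up 47.4% of end windows and 7.17% of the others.

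The shift faded with distance from the end. The mean net change was -17.3 in the outermost windows, -14.7 from 1 to 2 Mb, -8.74 from 2 to 3 Mb, -4.90 from 3 to 4 Mb and -3.27 from 4 to 5 Mb. It was -1.35 from 5 to 10 Mb, 1.09 from 10 to 20 Mb and 2.53 from 20 to 40 Mb. Both directions contributed: bins toward closed were 22.2% of the outermost windows and 11.5% of those at 20 to 40 Mb, and bins toward open 4.98% and 14.0%. For testicular portion, testis and ovarian portion in turn, states 1 and 2 together covered 19.8%, 12.1% and 22.9% of the outermost windows. States 1 to 3 covered 72.9%, 64.0% and 73.5%, so the testis alone stood lower there. From 1 to 2 Mb the order was another, with 67.8%, 56.4% and 56.5%, and the testicular portion alone stood higher. It was also the highest from 2 to 3 Mb, with 59.7%, 53.0% and 52.3%, and from 3 to 4 Mb, with 52.6%, 48.7% and 47.5%. The levels from 4 to 5 Mb were 49.8%, 47.05% and 45.0%.

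Ends were the more open part of the scaffolds in each tissue, and least so in the testis. States 1 to 3 covered 60.3% of end windows and 37.2% of other windows for the testicular portion. The testis had 53.6% and 38.4%, and the ovarian portion 54.5% and 36.2%. Ends therefore exceeded the rest by 23.1 points for the testicular portion, by 18.3 for the ovarian portion and by 15.2 for the testis. From the ovarian portion to the testis the mean net change was -4.15 at the ends and 2.25 elsewhere, and 23 of the 32 ends were below 0. From the ovarian to the testicular portion it was 5.36 at the ends and 0.497 elsewhere, and 8 of 32 were below 0.

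**Figure D4:**
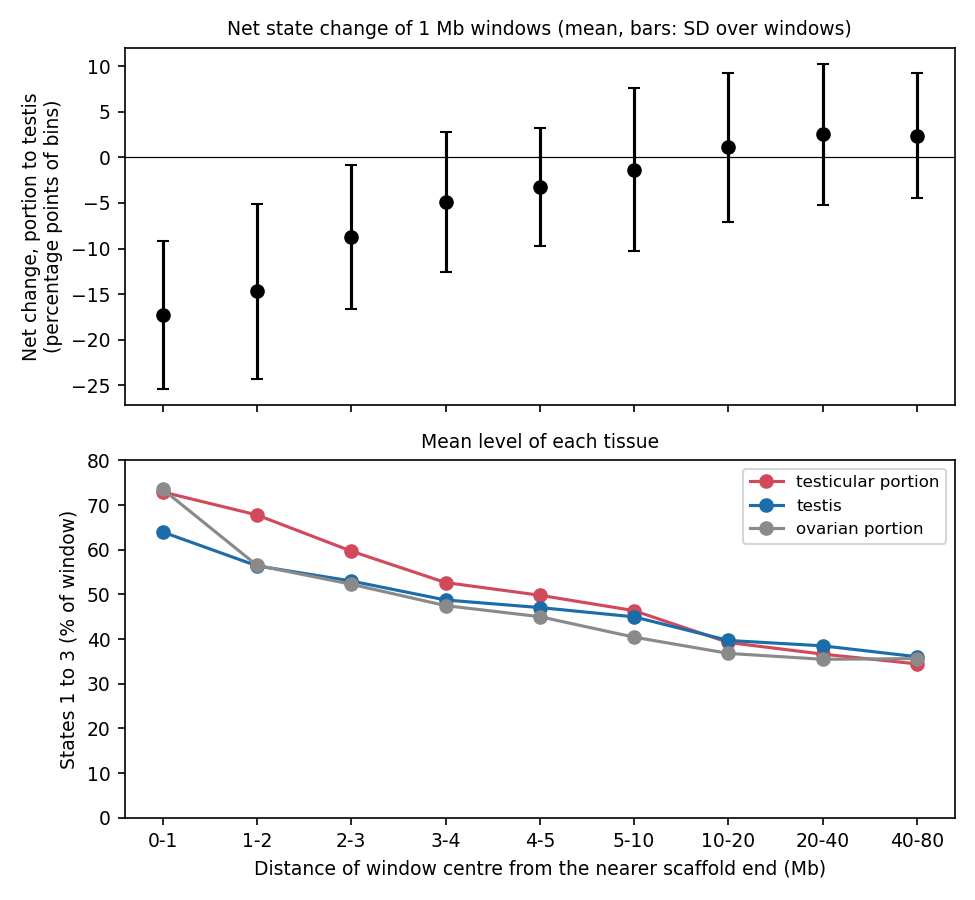
Upper panel, mean net change of 1 Mb windows from testicular portion to testis (y axis, percentage points, bars are the SD over windows) by distance from the nearer scaffold end (x axis, Mb). Lower panel, mean share of states 1 to 3 in each tissue, in percent of the window. The net change runs from -17.3 in the outermost windows to 2.53 at 20 to 40 Mb, and the testicular portion lies above the testis out to 10 Mb from the end.

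The direction also went with how open a window was in the ovarian portion, whose values enter neither side of the comparison but whose libraries share the number series of the testicular portion. Among windows away from the ends, the mean net change was 5.32 where states 1 to 3 covered under 20% in the ovarian portion and 5.15 at 20% to 30%. It was 3.22 at 30% to 40%, 0.470 at 40% to 50%, -4.24 at 50% to 60% and -10.1 at 60% or more. Of the 140 windows in the last class, 132 were below 0. At the ends the means in these classes were -2.52, -4.54, -9.68, -5.32, -10.0 and -13.0, over 11 to 80 windows each, so the order was not steady there. End windows were thus lower than the others in each of the 6 classes, though within a class they were also more open in the testicular portion, with 74.6% against 64.9% in the last.

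Windows of the testis were the most alike. The share of states 1 to 3 had an SD over windows of 12.9 points in the testis, 16.6 in the testicular portion and 16.8 in the ovarian portion. The range from the 5th to the 95th percentile ran from 21.4% to 63.6% in the testis, whereas the testicular portion spanned 16.3% to 70.1% and the ovarian portion 16.1% to 72.4%. Over whole scaffolds the SD was 2.81 points in the testis, 5.26 in the testicular portion and 5.11 in the ovarian portion.

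Scaffolds fell on both sides of 0. Taken whole, 9 of the 16 were toward open and 7 toward closed, from 4.44 points on scaffold 2 to -5.58 on scaffold 17. Scaffold 17 had the highest share of states 1 to 3 in the testicular portion, 51.2%, and held 47.3% in the testis. Scaffold 6 had the lowest share, 33.8%, and held 37.0% in the testis. Scaffolds 1, 2, 3, 4 and 6 lay between 3.85 and 4.44, and scaffolds 7, 10, 12, 14 and 17 between -5.58 and -2.72. State 1 alone covered more of the testis than of the testicular portion on 12 of 16 scaffolds, including scaffold 10, where the net change of all states was -4.58.

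**Figure D5:**
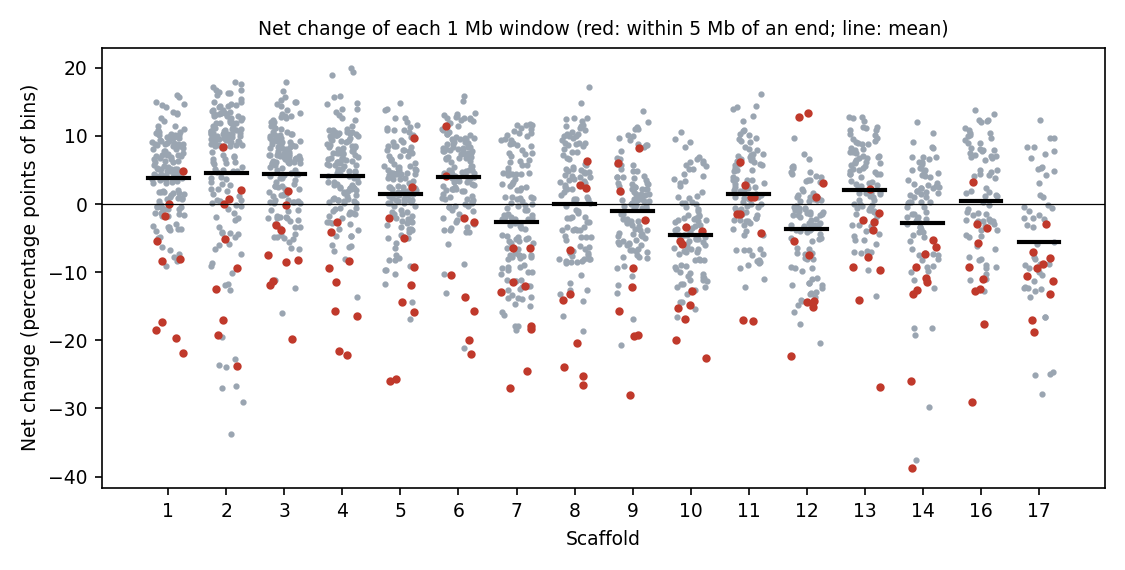
Net change from testicular portion to testis (y axis, percentage points of bins) of each 1 Mb window, grouped by scaffold (x axis), with windows within 5 Mb of an end in red and the scaffold mean as a bar. End windows lie mostly below the other windows of their scaffold, the lowest being -38.7 on scaffold 14.

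Windows with the largest net change toward closed lay on scaffolds 14, 2 and 16. On scaffold 14 from 89000001 to 90000000, 41.1% of bins were toward closed and 2.40% toward open, and states 1 to 3 covered 65.6% for the testicular portion against 30.4% for the testis and 37.5% for the ovarian portion. In the window from 23000001 to 24000000 of the same scaffold the net change was -37.6, and the levels in that order were 66.2%, 40.3% and 65.6%, so there the ovarian portion was close to the testicular portion. The same held on scaffold 2 from 35000001 to 36000000, with -33.8 and levels of 41.3%, 19.3% and 41.1%. On scaffold 14 from 83000001 to 84000000 the net change was -29.8 and the ovarian portion, at 27.2%, was close to the testis, at 30.5%. The first window of scaffold 16 had -29.1, with 86.9%, 69.2% and 79.0%.

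Toward open, the largest net changes lay mainly on scaffold 4. From 141000001 to 142000000 the net change was 20, and states 1 to 3 covered 26.9% for the testicular portion against 46.6% for the testis and 24.7% for the ovarian portion. From 133000001 to 134000000 it was 19.3, and from 132000001 to 133000000 it was 18.9. On scaffold 2 from 14000001 to 15000000 it was 18, with levels of 36.8%, 52.5% and 29.7%. On scaffold 3 from 132000001 to 133000000 it was 17.9, and there the ovarian portion, at 37.8%, was close to the testis, at 38.3%, while the testicular portion held 21.2%. State 1 covered at most 0.80% of each of these 5 windows in the testis, and states 1 and 2 together at most 6.42%, so the difference lay mainly in state 3.

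Windows of one direction also lay together. The longest unbroken row at 10 points or more toward closed covered 11 Mb of scaffold 17 from 46000001 to 57000000, with a mean net change of -17.5. Toward open it covered 13 Mb of scaffold 2 from 121000001 to 134000000, with a mean of 12.2. The next rows toward open, of 6 Mb each, were also on scaffold 2, from 73000001 to 79000000 and from 135000001 to 141000000. Of the 114 rows toward closed 68 were a single window, as were 82 of the 139 toward open. Scaffold 2 thus held both the longest rows toward open and the stretch with 10 of the 13 windows that had at least 20 kb less state 1 in the testis.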

How the data were processed

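ATAC-seq segmentations of 3 mole tissues were used, each deposited by the authors as 1 file with a state number from 1 to 5 per segment, which the labels attach to both samples of its tissue. The states are categories and have no unit. How they were assigned is not given in the sources at hand. STAR 2.6.1d and mm9 appear, without a role, per the submitters' processing notes. Segments were cut into 200 bp bins on scaffolds 1 to 17 without 15, using Python 3.11.15, numpy 2.4.6 and pandas 2.3.3. Open segments are runs of state 1, and an overlap of 1 bin counted. Windows were 1 Mb wide and at least 80% covered. Coordinates count from 1 on talOcc4. No test between tissues was possible, and spreads over windows or scaffolds are not replicates. The counting was checked on simulated segmentations with known splits and losses. The bounds of the stretch on scaffold 2, the distance classes and the classes of ovarian level were set after seeing the data. The comparison, lists and rules were chosen with earlier results of these data known. Named regions are the 5 windows with the largest net change per direction, the 3 longest segments closed in the other tissue, the 3 with most pieces per tissue, and the 3 largest shortenings and lengthenings. The planned use of gene names within 100 kb and of cell type markers was not possible without an annotation on this assembly, and no sequence is shown because no genome was at hand.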

Additional observations from a re-analysis of the deposited data

How the results depend on the processing

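No paired analysis was possible because each tissue has 1 segmentation for both samples and no value per sample, and for the same reason no replicate could be left out. Of 47 recomputed values for 11 results, 18 stayed within the limits set (the 95% counting interval of a share, 1.5 times a count, or the SD of 4.0 points over scaffolds for the end difference), and 29 moved. For shares of all bins that interval is very narrow. With scaffold 15 added, the share of bins with the same state was 75.2%, toward open 12.7% and toward closed 12.1%. Over all 4454 scaffolds these were 75.2%, 12.8% and 12%, and 71.2% of state 1 bins were shared. Without scaffold 2 the values were 74.7%, 12.9%, 12.4% and 75.4%, and without its 12 Mb stretch, an alternative added after seeing the data, 74.7%, 13.2%, 12.1% and 75.8%. With states 1 and 2 as open, 2477 testicular portion and 2000 testis segments were split, and 22925 pairs were shorter in the testis and 25438 longer, so that the order turned. With segments of at least 400 bp, 287 and 69 were split, and with a length change of at least 400 bp the pairs numbered 1759 and 1118. The split counts under these rules rest on other numbers of segments than the main rule and are not shares. With windows of 500 kb, of which there were 3827, the counts were 592 toward open and 471 toward closed. With windows of 1 Mb and a margin of 20 points they were 1 and 36, where the order also turned. Without the ends, also added later, 126 windows were toward closed. With ends of 2 Mb the end difference was -17.4, and with ends of 10 Mb -7.60. The depth is unknown, and how it limits the calls of single bins could not be measured.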

Other observations

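Scaffold 15, 88.9 Mb long and outside the comparison, stood apart from the 16 scaffolds. The testicular portion and the testis had the same state in 86.8% of its bins, against 73.6% to 75.6% on the others. States 1 to 3 covered 13.5% of it for the testicular portion, 11.1% for the testis and 23.9% for the ovarian portion. On the 16 scaffolds the lowest such shares were 33.8%, 36.6% and 31.9%. The share of equal states that state totals alone would give was not computed for scaffold 15. A closer likeness of the tissues there therefore cannot be read from the 86.8%. Bins toward closed in the testis made up 8.70% of scaffold 15 and bins toward open 4.51%. Splits were rare there, with 1 segment of the testicular portion and 3 of the testis.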
